A study of Mus musculus with 8 samples.

Results

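Methylation of a single transcript, Gata6, was measured in mouse EPSC that carried a guide RNA against Gata6 (sgGata6). EPSC with a control guide (sgCtrl) were measured beside them, in a test of a targeting system built on dCas13b-FTO. These 4 libraries, 2 per guide, belong to a series of 8. The other 4 come from TBLC, another mouse cell type, grown with control siRNA (siNC) or with siRNA that depletes Virma (siVirma). EPSC and TBLC are not spelled out in the labels; the usual reading of EPSC is expanded potential stem cells. The labels give no delivery route, promoter, clone or treatment time, and they do not say whether the sgCtrl cells carried the same dCas13b-FTO protein. The deposited EPSC values are pooled over the libraries of each guide, so each site has 1 value per group and no SD. The members were the 19342 rows of the EPSC table, of which 10185 had at least 20 A+G reads in both groups and were tested, together with all 3 Gata6 rows.

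N6-methyladenosine (m6A) is laid on mRNA by a nuclear writer complex around METTL3 and METTL14, bound by YTH-domain readers, and removed by the demethylases FTO and ALKBH5; it is often tied to faster mRNA turnover, although some readers stabilise their targets. Catalytically dead Cas13b binds RNA through a guide without cutting it, so a fusion to FTO is meant to bring the eraser to a chosen transcript. GATA6 is the transcription factor that sets primitive endoderm apart from epiblast in the blastocyst, against NANOG and downstream of FGF signalling. GLORI, the assay used, deaminates adenosine that carries no methyl group, which then reads as G, while m6A resists and reads as A. The m6A level of a site is therefore its A reads divided by its A and G reads.

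Across the table the sgCtrl group held 964966 A+G reads and the sgGata6 group 1044927, a median of 22 and 29 reads per row. Every row met 3 minimums, 15 A+G reads, 5 A reads and a level of 0.1, in at least 1 group. Both groups met them at 8488 rows, sgGata6 alone at 7202 and sgCtrl alone at 3652. A row present through 1 group only tends to be lower in the other by how it was chosen: of the tested sites, 2029 of 2036 that entered through sgCtrl only were lower in sgGata6, and 1645 of 1743 that entered through sgGata6 only were higher. The 6406 sites that met the minimums in both groups carry no such direction, with 3285 lower and 3062 higher. Fisher's exact test was applied to pooled A and G reads, so its p-values compare these pooled libraries, not the conditions, and count each read as independent. All intervals cover counting error only.

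The comparison asks whether m6A on Gata6 differs between the guides. The level was lower with the Gata6 guide at all 3 Gata6 sites, although no site passed the test, and coverage was lower as well. The sites lie on chromosome 18 of mm39, on the + strand, at positions 11085019, 11085025 and 11085029, within 10 nucleotides of each other. At the first, 16 of 23 reads were A in sgCtrl and 4 of 11 in sgGata6. At the second the values were 24 of 27 and 6 of 10, and at the third 14 of 28 and 4 of 12. The sgGata6 level was thus 52.3%, 67.5% and 66.7% of the sgCtrl level. By Fisher's exact test no site passed the threshold (Benjamini-Hochberg adjusted p = 0.619, 0.476 and 0.926 over 10188 sites).

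Summed over the 3 sites, the level difference was -0.268 (95% Newcombe interval -0.445 to -0.0678), with an unadjusted Fisher's exact p = 0.0107 and an adjusted p = 0.335 over 2888 genes. Sites this close can share reads, so the sum may count a read up to 3 times, and its p is then too small. The site with the most reads, used alone, gave a difference of -0.167 and a Fisher's exact p of 0.491. The order of the 3 levels was the same under both guides: the second site was highest and the third lowest, although their sgGata6 intervals overlap widely.

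The lower level came mainly with a loss of A reads. A reads over the 3 sites went from 54 to 14, a ratio of 0.259, and G reads from 24 to 19, a ratio of 0.792. The median gene had a ratio of 1.38 in A+G reads, so relative to it G reads were lower as well. At the first site G reads were 7 in both groups, and at the second 3 and 4. None of the 3 rows met the minimums in sgGata6, where they had 10 to 12 A+G reads against the 15 required, while all 3 met them in sgCtrl. The first site and the third also missed the minimum of 5 A reads there, with 4 each. Their sgGata6 levels, 0.333 to 0.600, lie above the level minimum of 0.1.

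For scale, 196 other sites that are in both control TBLC lists had 20 to 30 reads in sgCtrl and 10 to 14 in sgGata6, as the Gata6 sites do. Their median difference was -0.0327, with quartiles of -0.132 and 0.0627, and 111 of them were lower in sgGata6. With under 15 reads in sgGata6, all of them, like the Gata6 rows, are in the table through sgCtrl only. Of these sites, 1 was as low as the first Gata6 site, 5 as low as the second and 38 (19.4%) as low as the third. Among 2978 genes with at least 30 summed reads in both groups, Gata6 and Trim8, an E3 ubiquitin ligase, had a difference as low as that of Gata6, and 1 gene was higher by as much. Trim8 went from 0.545 over 44 reads to 0.200 over 30 reads.

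**Figure D1:**
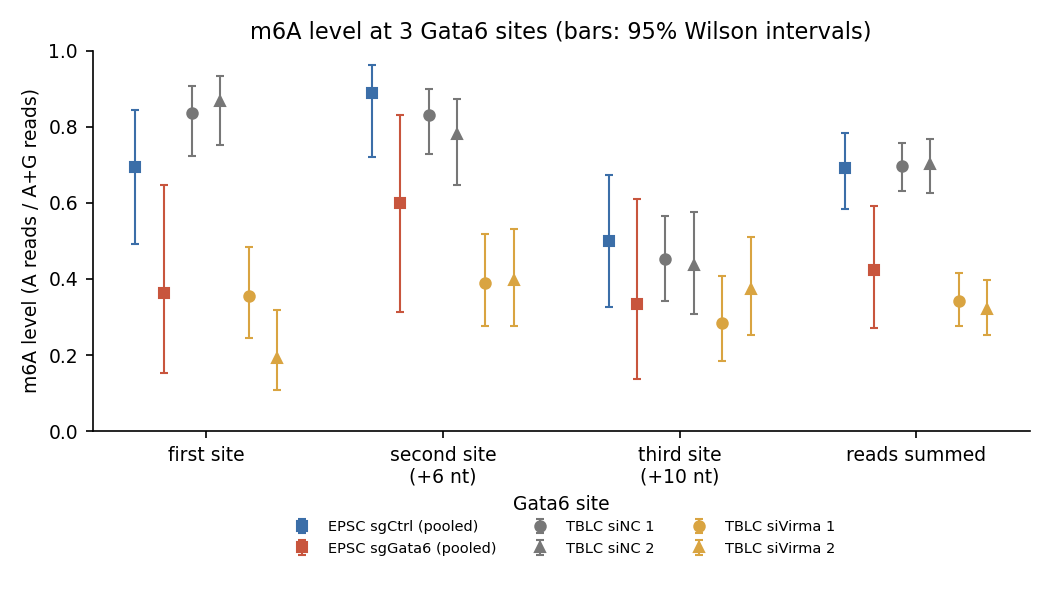
m6A level (A reads divided by A+G reads) at the 3 Gata6 sites and for their summed reads, for the pooled EPSC groups and each TBLC library; bars are 95% Wilson intervals. The sgGata6 values lie below the sgCtrl values at every site, and the summed sgGata6 level of 0.424 lies between the TBLC siNC and siVirma libraries.

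TBLC give a second reading of the same adenosines. Their summed Gata6 level was 0.698 and 0.702 in the 2 siNC libraries, next to 0.692 in EPSC with the control guide. In the siVirma libraries, where a scaffold of the writer complex is depleted, it was 0.343 and 0.321, below the 0.424 of EPSC with the Gata6 guide, whose 95% Wilson interval of 0.272 to 0.592 holds both. The TBLC lists give a gene coverage for Gata6, 30.6 and 29.3 with siNC against 30.7 and 26.8 with siVirma, and these groups overlap. The lists of both siNC libraries hold 10 Gata6 sites, and 7 of them have no row in the EPSC table, so the EPSC values describe 1 short stretch of the transcript.

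Coverage of Gata6 with its guide was 0.423 of that with the control guide (95% interval 0.273 to 0.643), from 33 against 78 A+G reads. Reads shared by these close sites may be counted up to 3 times here too, and the interval is then too narrow. The single sites gave 0.478 (95% interval 0.210 to 1.02), 0.370 (0.160 to 0.790) and 0.429 (0.199 to 0.870). Gata6 reaches the minimums of 30 and 50 summed reads through this sum alone. Coverage is the number of A+G reads at listed sites, and fewer cells with the transcript and less transcript per cell cannot be told apart. The median of 4688 genes had a ratio of 1.38, so relative to it Gata6 stood at 0.306. Of 2369 genes with at least 50 sgCtrl reads, 12 (0.507%) had a ratio as low as Gata6, which is one of them. The others included 7 tRNA genes, whose copies are near-identical and whose read assignment is uncertain, and the mRNAs Trib3, a stress-induced pseudokinase, and Cep170, a centrosomal protein. Trib3 had 77 and 24 reads, and its level was higher with the Gata6 guide, 24 A reads of 24 against 0.805. Low coverage and a lower level thus did not go together there. In Cep170 they did, with 180 and 60 reads and levels of 0.222 in sgCtrl and 0.117 in sgGata6. Among the 2978 genes, no other had a coverage ratio and a level difference both as low as those of Gata6. Both limits are Gata6's own values, so that count alone carries little weight. All 3 Gata6 rows were in the table through sgCtrl only, with under 15 reads in sgGata6. A low ratio thus partly follows from how they were chosen, and the minimum of 50 reads is also set on sgCtrl alone.

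**Figure D2:**
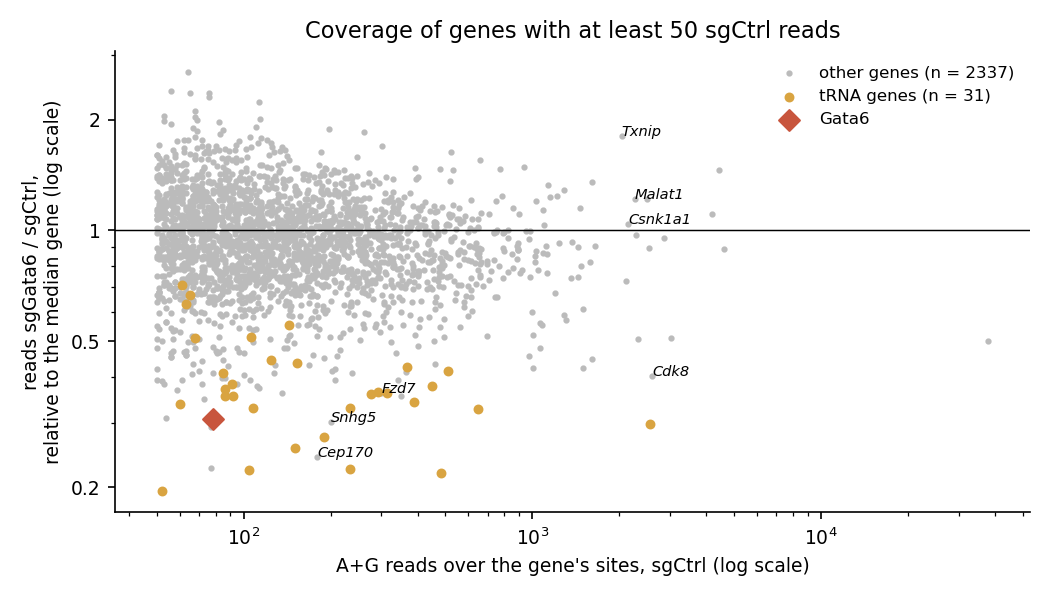
Ratio of A+G reads in sgGata6 to sgCtrl for each gene with at least 50 sgCtrl reads, relative to the median gene, against its sgCtrl reads; both axes are logarithmic. Gata6 (diamond, 0.306) lies at the lower edge, among tRNA genes (orange), while most other genes lie near 1.

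In the 1630 genes with at least 3 sites and 100 reads in the higher group, 31 (1.9%) had coverage at least 2-fold below the median gene and 15 (0.92%) at least 2-fold above it. Divided by total reads in place of the median gene, these counts were 6 and 75, so the balance of lower and higher genes depends on the scaling. The lowest relative ratios were those of Cep170 (0.241), Snhg5, a small nucleolar RNA host gene (0.300), Pml, the scaffold of PML nuclear bodies (0.354), Fzd7, a Wnt receptor (0.362), and Khnyn (0.372). The highest were those of Rpl39l, a ribosomal protein paralog (4.57), Gm37292 (4.42), the imprinted zinc finger gene Peg3 (3.87), Gm2213 (3.60) and Ppp1r10, a regulatory subunit of protein phosphatase 1 (2.70). Levels in sgCtrl and sgGata6 were 0.185 and 0.205 for Snhg5, 0.400 and 0.351 for Pml, 0.211 and 0.200 for Rpl39l, and 0.407 and 0.242 for Gm37292. In 9 of these 10 genes the level was lower in sgGata6, with differences of up to -0.165, beside 50.5% lower over the 2887 tested genes. Snhg5 was the exception. These sums include rows below the read minimum, as in Rpl39l with 19 sgCtrl reads in all. They also carry the entry of the rows and move when reads shift between sites, so they show no link between coverage and level. There is no replicate behind these ratios.

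Beyond Gata6, site levels had nearly the same median under both guides, with scatter in both directions. Over the 10185 tested sites the median level was 0.222 in sgCtrl and 0.224 in sgGata6, and the median difference was -0.00906, with quartiles of -0.0825 and 0.0620. Levels correlated across sites with a Pearson r of 0.913, a description across sites that share libraries. At an adjusted p of 0.05, 26 sites (0.255%) fell and 2 (0.0196%) rose. Sites lower by at least 0.2 numbered 322 (3.16%) and sites higher by as much 297 (2.92%), so large differences were spread almost evenly in both directions. At an unadjusted p of 0.05, in contrast, 930 sites (9.13%) were lower and 267 (2.62%) higher.

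Most of that imbalance was in one class of sites. The 7238 tested sites that are also in both control TBLC lists had a median of 0.300 in sgCtrl and 0.310 in sgGata6, a median difference of 0.00311, and 196 lower and 201 higher at an unadjusted p of 0.05. The 2220 sites in no TBLC list had a median of 0.127 and 0.0647, a median difference of -0.0756, and 707 lower against 48 higher. Of these, 1373 were in the table through sgCtrl only and 505 through sgGata6 only, although sgGata6 was the deeper group. The shared sites had the opposite balance, 512 and 961. The direction of a site that entered through 1 group follows from that entry. Among sites in no TBLC list that met the minimums in both groups, 342 in all, the median difference was -0.00587.

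**Figure D3:**
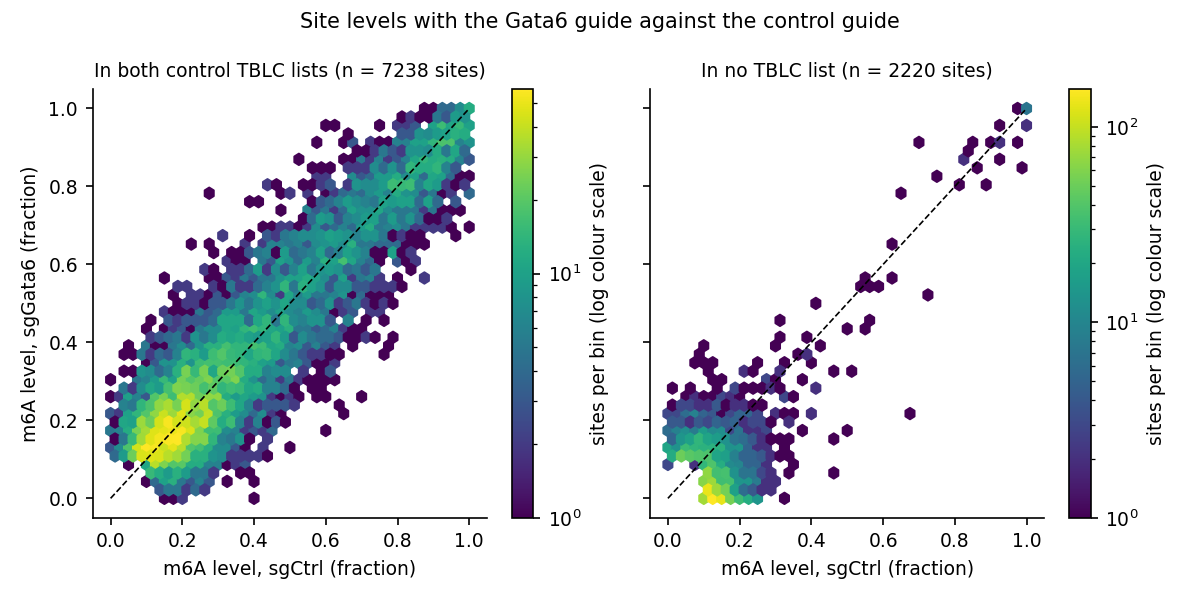
m6A level of each tested site in sgGata6 against sgCtrl, for 7238 sites in both control TBLC lists (left) and 2220 sites in no TBLC list (right); the colour gives sites per bin on a log scale and the dashed line marks equal levels. Shared sites spread evenly about the line, and sites in no TBLC list gather below a level of 0.2, mostly under the line.

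The 2 classes were also compared within genes. Sites in no TBLC list took their gene name only from lying between its listed sites, so they need not belong to its transcript. In 556 genes with tested sites of both kinds, 2298 shared and 883 in no TBLC list, the median over genes was 0.00703 for shared sites and -0.0574 for the others, and the latter were lower in 366 genes (65.8%). This contrast carries the entry of the rows. With rows that met the minimums in both groups only, 103 genes remained, the medians were 0.00681 and -0.0156, and the latter were lower in 62 genes. Malat1, a nuclear long noncoding RNA, is an example. Its 7 sites in no TBLC list were all in the table through sgCtrl only, so their direction follows from that. Of their reads, 40 of 313 were A in sgCtrl and 8 of 531 in sgGata6. What set the size of that difference was not tested. At its 10 shared sites the differences ran from -0.0344 to 0.0624, with 4 lower and 6 higher. Lamc1, the laminin gamma chain of basement membranes, had 8 lower and 6 higher among its 14 shared sites. Of its 5 other sites, 4 entered through sgCtrl only and were lower, and 1 entered through sgGata6 only and was higher.

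Among shared sites the difference varied little with the level. The shared sites were grouped by their control TBLC level, with the reads of both libraries pooled, which is independent of the EPSC reads. Sites at 0.1 to 0.2 had a median difference of 0.0101 and sites at 0.2 to 0.4 one of 0.00804. Those at 0.8 to 0.9 had -0.0125, with 55.7% of 476 lower, and those at 0.9 to 1 had -0.0145, with 59.9% of 558 lower. These medians are small beside the scatter of single sites. The median absolute difference between guides was 0.0750 at 20 to 49 reads and 0.0333 at 100 reads or more. Between the 2 control TBLC replicates it was 0.0567 and 0.0259 in those depth classes, which hold largely different sites because TBLC were deeper. This describes another cell type, since EPSC replicates cannot be separated.

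**Figure D4:**
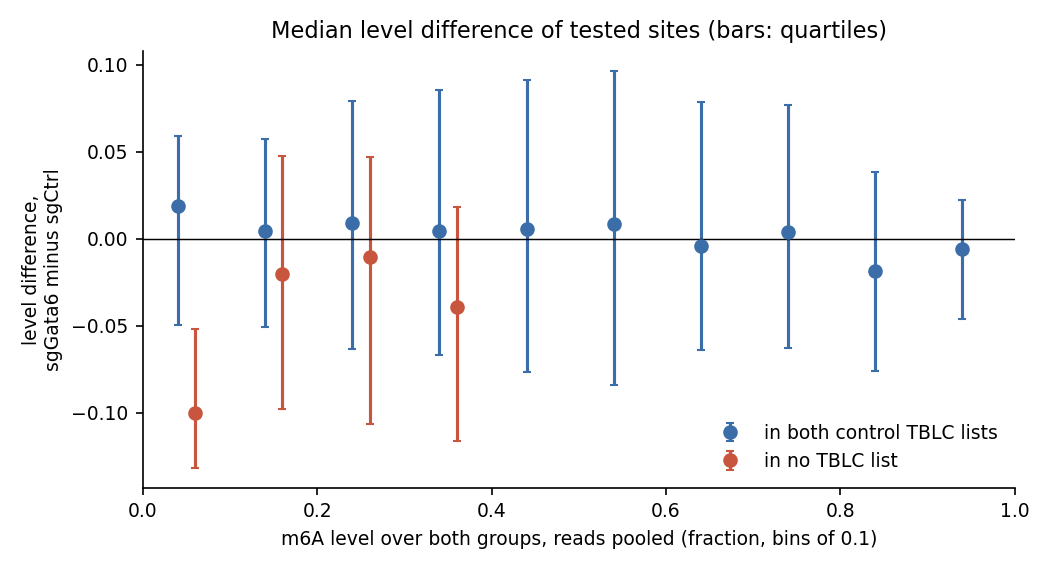
Median level difference (sgGata6 minus sgCtrl) of tested sites by their level over both groups, in bins of 0.1 with at least 20 sites; bars span the quartiles. Shared sites lie near 0 in every bin, and sites in no TBLC list lie lowest in the bin below 0.1, at -0.100, where every row met the minimums in 1 group only.

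Of the 26 sites that fell, 20 have no gene name and 23 are in no TBLC list. Of the 26, 19 were in the table through sgCtrl only and 15 had at least 1000 sgCtrl reads. Without sites that deep, 9 fell. Several of the 26 lie together on chromosome 17, from position 40154592 to 40159074, so they are not all separate loci. Close sites there, such as 40159073 and 40159074, can share reads. The largest difference was at chromosome 2 position 166838073 (- strand, no gene name), with 18 of 40 reads A in sgCtrl and 3 of 48 in sgGata6 (Fisher's exact test, adjusted p = 0.0131). A site in the span of Ncl, which encodes the nucleolar protein nucleolin, at chromosome 1 position 86284027 (- strand) went from 21 of 119 to 4 of 154. At chromosome 2 position 130723215 (+ strand) the reads were 10 of 70 and 0 of 98, which allows a level of up to 0.0306. Its Fisher's exact test adjusted p was 0.0398, but 0.0662 with a minimum of 10 reads, 0.0755 with none and 0.0928 under 1000 sgCtrl reads. All 3 met the minimums in sgCtrl only.

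Another 4 of the large falls were also at rows in the table through sgCtrl only. At chromosome X position 140764413, in the span of the predicted gene Gm6368, the reads went from 15 of 122 to 1 of 193. The unnamed sites at chromosome 4 position 126573594 and chromosome 14 position 76085689 went from 41 of 298 to 6 of 248 and from 26 of 194 to 6 of 263. A site in Gm6789 at chromosome 18 position 63677219 had 13 of 107 and 3 of 285. The exception was Gm26917 at chromosome 17 position 40159074, among the deepest sites, where the level fell from 0.673 to 0.552.

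Both rises were of another kind. A site of Sfpq, a paraspeckle splicing factor, at chromosome 4 position 126926430 (+ strand) rose from 10 of 78 reads to 34 of 84 (difference 0.277, Fisher's exact test adjusted p = 0.0329). It is in both control TBLC lists, but its Fisher's exact test adjusted p was 0.0547 with a minimum of 10 reads and 0.203 among sites in both control TBLC lists alone. At chromosome X position 21546813 the level rose from 0.186 to 0.204, a small difference at a site with 26685 and 21609 reads.

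When reads were summed per gene, 21 of 2887 tested genes (0.727%) fell and 3 (0.104%) rose. Bptf, the largest subunit of the NURF chromatin remodeller, had 93 of 132 reads A in sgCtrl and 60 of 125 in sgGata6 over 4 sites (Fisher's exact test, adjusted p = 0.0460). Hnrnpk, an RNA-binding protein, had 63 of 299 and 37 of 405, and Brd2, a BET bromodomain protein, 102 of 338 and 82 of 454. Eif5a, a translation factor, had 28 of 170 and 10 of 216. A sum also moves when reads shift between sites of unequal level, so an exact conditional test with sites as strata, chosen after seeing the data, was added. It called 18 genes, of which 16 were among the 24. In this exact test Hnrnpk (adjusted p = 0.0145) and Eif5a (0.0289) were called, while Bptf (0.580) and Brd2 (0.171) were not. All 3 Eif5a sites took their name from the span of the gene, and with exactly matching names alone Hnrnpk had a Fisher's exact test adjusted p of 0.0764. With the best covered site of each gene alone, 3 genes fell and 0 rose. Stratifying by site does not remove the entry of the rows. Hnrnpk sites with sgGata6 levels of 0.0541, 0.0882 and 0 lay below the level minimum of 0.1, so these rows entered through sgCtrl only. The other Hnrnpk site, with 0.356 and 0.191, met the minimums in both groups. Eif5a had a summed sgGata6 level of 0.0463 and no site in both control TBLC lists. With sites in both control TBLC lists alone, 2 genes fell and 3 rose.

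Brd2 had lower levels at 4 of its 6 shared sites, beside 48.4% lower over all shared sites. With shared sites alone its Fisher's exact test adjusted p was 0.165. At its most methylated site 20 of 26 reads were A in sgCtrl and 8 of 22 in sgGata6, its lowest difference, -0.406. Its best covered site went the other way, 0.245 and 0.302. Bptf had 7 of 21 and 4 of 32 reads at the site with its lowest difference, 40 of 44 and 26 of 35 at another, and 0.936 and 0.923 at a site beside it. Pcbp1, a poly(C)-binding protein outside the naming rule, had 5 of 6 shared sites lower, 3 of 4 among those that met the minimums in both groups, and fell in both tests, from 0.212 to 0.121 in sum.

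Csnk1a1 gave the clearest rise. It encodes casein kinase 1 alpha, a kinase of the beta-catenin destruction complex, and 601 of 2097 reads were A in sgCtrl against 1016 of 2985 in sgGata6 (difference 0.0538, Fisher's exact test adjusted p = 0.0141, and 0.00636 with sites as strata). Of its 14 shared sites, all of which met the minimums in both groups, 13 were higher with the Gata6 guide, the largest difference being 0.203. Some of them lie near each other, as at positions 61720573 and 61720611, and can share reads. Their directions are then not independent, and both p-values are too small. Its 2 sites in no TBLC list entered through sgCtrl only and were lower. Its best covered site had 0.201 and 0.205. Malat1 (0.282 and 0.349) and Serbp1, an mRNA-binding protein (0.246 and 0.343), also rose in sum, but with sites as strata their differences were 0.00939 and 0.0275 (exact test, adjusted p = 0.927 and 0.869). Malat1 had more reads at its highly methylated sites with the Gata6 guide, 685 against 306 at 1 of them.

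**Figure D5:**
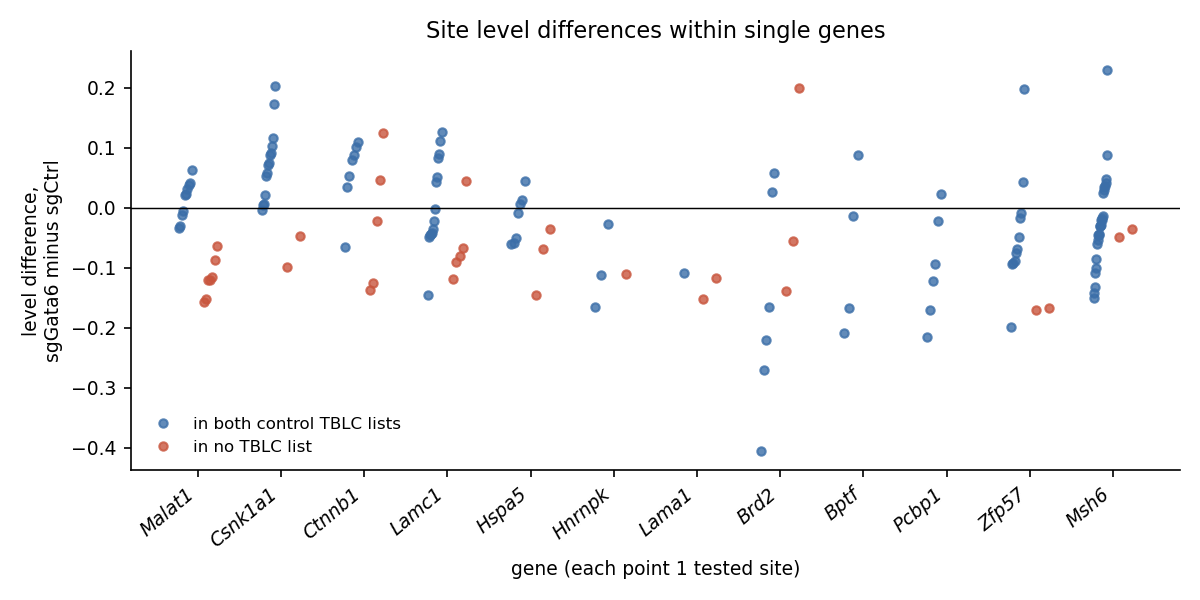
Level difference (sgGata6 minus sgCtrl) of each tested site in 12 genes, with sites in both control TBLC lists in blue and sites in no TBLC list in red. Nearly all Csnk1a1 shared sites lie above 0, all 7 red Malat1 sites, which entered through sgCtrl only, lie below 0, and Brd2 holds both the lowest point (-0.406) and a red point at 0.200.

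The primitive endoderm list holds markers and regulators of that lineage, Gata6 itself among them, and not only partners or targets of GATA6. Of 29 listed genes 14 had a row and 9 were tested, with 1 called lower and none higher, beside 0.727% and 0.104% of all genes. Of 54 sites 35 were lower, but 16 entered through sgCtrl only and 7 through sgGata6 only, and all of these took the direction of their entry. Of the 31 sites that met the minimums in both groups, 19 were lower and 12 higher, with a median difference of -0.0286 beside -0.00286 over all such sites. Lama1, the laminin alpha chain of the early endoderm basement membrane, fell from 19 of 123 reads to 4 of 165 (Fisher's exact test, adjusted p = 0.0177). All 3 of its sites were in the table through sgCtrl only and 2 are in no TBLC list; with names from exactly matching sites only, 1 site remained and the adjusted p was 0.662. Col4a1, a collagen IV chain, had 53 of 305 and 66 of 575 (Fisher's exact test, adjusted p = 0.386), and its partner Col4a2 46 of 167 and 62 of 260. Lamc1 had 219 of 1108 and 243 of 1368, and Lamb1 22 of 42 and 31 of 54.

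The remaining endoderm genes gave values on both sides. Sall4, a zinc finger factor shared with pluripotent cells, had 0.453 and 0.381, Nid2, a basement membrane linker, 0.286 and 0.289, and P4ha2, a prolyl hydroxylase, 0.308 and 0.283. Fgfr1, an FGF receptor, had 0.255 and 0.343. None of these passed the test. Gata4, Sox17, Sox7, Foxa2 and Dab2, partners or early targets of GATA6, had no row in the EPSC table, and of 15 listed partners and targets only Pdgfra and Amn did, below the read minimum. Pdgfra, a primitive endoderm receptor, had 12 of 14 reads A and 12 of 16. A table of methylated sites does not show whether a gene without a row is expressed.

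Transcripts of the m6A machinery were covered more thinly. None of the 6 tested genes of the writer complex was called, which at 0.727% lower and 0.104% higher over all genes is no result about so few. Wtap, an adaptor subunit, had 29 of 47 and 22 of 45 reads, Mettl14, the RNA-binding partner of METTL3, 5 of 24 and 7 of 23, and Zc3h13 9 of 45 and 17 of 58. Cbll1 (Hakai), another subunit, had 5 of 21 and 2 of 30. Mat2a, which makes the methyl donor and is itself regulated by m6A, had 49 of 89 and 73 of 121, and Mettl16, the methyltransferase of the Mat2a hairpins, 12 of 27 and 9 of 27. The median over their 9 sites was 0.00575.

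Of the readers and erasers none of 10 tested genes was called, which at the same shares over all genes is no result about them, and the median difference over 52 sites was 0.0178. Among the readers, Ythdf3 had 0.456 and 0.425, Ythdf1 0.352 and 0.343, Ythdc1 0.227 and 0.156, Prrc2a 0.307 and 0.304, Igf2bp1 0.149 and 0.143, Igf2bp3 0.0800 and 0.213, and Hnrnpa2b1 0.0667 and 0.120. Cnot1, the scaffold of the deadenylase recruited by YTHDF2, had 0.264 and 0.262. The eraser Alkbh5 had 79 of 255 and 85 of 248 reads. Fto itself had 21 and 31 reads at 1 site, 4 and 7 of them A, with coverage 1.17 times the median gene; whether such reads include the fusion transcript cannot be told.

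Naive pluripotency genes, which mark the epiblast side, had 23 tested genes, none of them called. At 0.727% lower and 0.104% higher over all genes, that is no result about so few. Of the 106 sites that met the minimums in both groups, 62 were lower (median -0.0164). Over all such sites, 3285 of 6406 were lower (median -0.00286). Esrrb, a nuclear receptor of the naive network, had 0.231 and 0.241, and Pou5f1 (OCT4) 0.221 and 0.190, with reads at 0.591 of the median gene. Of 21 listed trophectoderm genes 3 had a row; Cdx2, Eomes, Elf5 and Gata3 had none. Of 20 fibroblast markers, listed for possible feeder cells, only Fn1 and Vim had one, and the fibrillar collagens had none. Fn1 had 0.186 and 0.147 and Vim 0.324 and 0.376.

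Other lists were described by their 2 best covered genes, chosen by reads and not by change. Fgf4, the ligand that drives primitive endoderm, had 0.354 and 0.353, and Map2k1 (MEK1) 0.308 and 0.261. Beside Csnk1a1, Ctnnb1 (beta-catenin) had 0.163 and 0.220 with a Fisher's exact test adjusted p of 0.0667, and 6 of its 7 shared sites were higher. Tet1 had 0.224 and 0.242, Kdm5b, a histone demethylase, 0.462 and 0.430, Ccne1 (cyclin E1) 0.480 and 0.493, Aurka 0.288 and 0.221, Mcl1, an anti-apoptotic factor, 0.328 and 0.314, and Mdm4 0.186 and 0.193. Among splicing factors, Srrm2 had 0.245 and 0.227, and Son, a nuclear speckle protein, 0.372 and 0.325 (Fisher's exact test, adjusted p = 0.216, but 0.0289 with sites as strata). Tdgf1 and Lefty2, of the Nodal pathway, had 0.277 and 0.308, and 0.190 and 0.223. Yap1 had 0.277 and 0.323, Amotl2 0.292 and 0.263, and the 2-cell genes Eif1a and Dppa4 0.330 and 0.356, and 0.224 and 0.316. Across all 15 lists no single site was called at the adjusted threshold, where 0.255% of all sites fell and 0.0196% rose.

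The genes next to Gata6 on chromosome 18 gave values on both sides. Usp14, a proteasome-bound deubiquitinase 1089 kb away, had 24 of 74 reads A in sgCtrl and 64 of 123 in sgGata6, a higher level (Fisher's exact test, adjusted p = 0.283). Rab18 had 0.388 and 0.392, Impact 0.145 and 0.234, and Gm5160 5 of 26 and 2 of 28. Over the 276 tested sites of the chromosome the median difference was 0.00109, with 136 lower and 138 higher.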

How the data were processed

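GLORI libraries were made from purified mRNA and run on an Illumina NovaSeq, per the labels' protocols. The build, mm39, is from the submitters' processing notes; the aligner and caller were not given in the sources used here. The deposited EPSC table gives for each site counts of A reads, the coverage signal in A+G reads, the total coverage by any base and a level as a fraction, pooled over the 2 libraries of each guide, per the file headers; the deposited fraction equals the quotient of the counts. The p-values in the TBLC lists are the authors' and were not used. Groups come from the sample titles. The members, gene lists and comparisons were chosen with earlier results of these data known.

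Gene names came from the TBLC lists, by identical position and strand for 15551 of 19342 rows and, for 1435 rows, by lying between the listed sites of 1 gene; 2356 had none. No annotation of mm39 was used, so exons and UTRs are not stated. Sites whose A+G reads reached 20 in both groups entered Fisher's exact test (two-sided, Benjamini-Hochberg adjusted p of 0.05 over all tested sites), and their reads were summed per gene. Where sites of 1 gene lie within a read length they can share reads, and the gene p-values, also with sites as strata, are then too small. The 3 Gata6 sites were added without the minimum. Coverage was compared as the ratio of A+G reads relative to the median gene, with a 2-fold limit. Intervals are 95% Wilson or Newcombe intervals and reflect counting alone: there are no molecular identifiers, so reads need not be independent molecules. Floors for 0 reads use 3 counts.

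Named items were all Gata6 sites; up to 8 falls and 8 rises among sites and 6 and 6 among genes (at least 100 reads in each group) past the threshold; all tested primitive endoderm, writer, reader and eraser genes and GATA6 partners; the 2 best covered genes of each other list; the 5 highest and 5 lowest coverage ratios; and the 2 nearest tested genes on each side of Gata6. Trim8, Trib3, Pcbp1 and Malat1 sites were singled out after their values were seen. In simulated data with 200 of 10185 sites at 50% of their level, the site test recovered 4.5%, and at 25% of their level 21.5%, so most changes of that size would be missed. Python 3.11.15, numpy 2.4.6, pandas 2.3.3, scipy 1.17.1 and matplotlib 3.10.9 were used.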

Additional observations from a re-analysis of the deposited data

How the results depend on the processing

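The table is pooled, so leaving out a replicate was not run, and one library cannot be set against the other. No paired analysis was possible because the columns carry no replicate number. By exact tests, the summed Gata6 difference was -0.263 as an unweighted mean of the sites (no test), -0.268 by mid-p (p = 0.00793) and -0.258 with sites as strata (p = 0.0140); the site with the most reads gave -0.167 (p = 0.491). The second Gata6 site, at a difference of -0.289, had a mid-p of 0.0390 in place of Fisher's exact p = 0.0688.

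The count of sites that fell (26) and rose (2) was 77 and 8 with a minimum of 50 reads, 74 and 5 by a Pearson chi-square test, 51 and 4 by mid-p, 7 and 1 where both groups met the calling minimums, 2 and 0 among sites in both control TBLC lists, and 9 and 0 under 1000 sgCtrl reads (an alternative chosen after seeing the data). With a minimum of 10 reads or none, 1 site rose. The median difference (-0.00906) and share lower (53.1%) were -0.00344 and 50.8% at a minimum of 10, -0.0139 and 57.2% at 50, 0 and 49.8% with none, -0.00286 and 51.3% where both groups met the minimums, and 0.00311 and 48.4% among sites in both control TBLC lists. For genes, 21 fell and 3 rose; the best covered site gave 3 and 0, exact names 3 lower, sites in both control TBLC lists 2 lower, and strata 1 higher. Brd2 reversed at its best covered site, to a difference of 0.0570. Against total reads, 6 genes were 2-fold lower and 75 higher, and Gata6 stood at 0.391. The cause of these shifts was not tested, beyond fewer sites tested under the stricter choices.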

Other observations

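tRNA genes were less covered with the Gata6 guide as a group. All 31 tRNA genes with at least 50 sgCtrl reads lay below the median gene, at 0.195 to 0.712 of its ratio with a median of 0.362, while their median level difference was -0.00722. The largest, n-TUtca2, had 2558 and 1051 reads, with levels of 0.993 and 0.987. Their copies are near-identical, and they were picked by symbol after the coverage values were seen. The Gata6 coverage ratio lies within their range.

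The deepest rows held much of the sequencing. One unnamed site, at chromosome 16 position 10961996, took 11.7% of sgCtrl and 6.06% of sgGata6 reads, and its level fell from 0.104 to 0.0572. The unnamed site at chromosome 7 position 130436273, with 33353 and 22431 reads, had 0.976 and 0.977. Of 32 tested sites with at least 1000 sgCtrl reads, 24 were lower in sgGata6 and 24 have no gene name.

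Transcripts with the most tested sites stayed close. The imprinted retrotransposon-derived gene Peg10, with 54 sites, had 0.398 and 0.371 (Fisher's exact test, adjusted p = 0.251). Txnip, a thioredoxin-binding protein with 20 sites, had 0.242 and 0.271 while its coverage was 1.80 times the median gene. Msh6, a mismatch repair protein with 28 sites, fell from 0.359 to 0.313 (Fisher's exact test, adjusted p = 0.0462), with 15 of the 22 shared sites that met the minimums in both groups lower; with sites as strata it was not called.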
